A study of Mus musculus with 12 samples.

Results

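Growth hormone reaches the liver in a different rhythm in male and female rodents, and this rhythm sets the level of many autosomal liver genes, among them enzymes that hydroxylate steroids and drugs. The 9 genes described here were listed by name as such genes, out of 27670 genes with a probe on the array: Cyp2d9, Hsd3b5, Cyp4a12a, Moxd1, Cyp2a4, Cyp2a5, A1bg, Cux2 and Srd5a1. They were read by 15 of the 41174 non-control probes, found by current symbol, older symbol or transcript accession. All 15 probes passed the filter on dim signal, which required the scanner's well-above-background flag on each of the 3 arrays of some group and kept 28840 probes. The question was what a glucocorticoid did to each of them in each sex.

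The samples were livers of 12 C57BL/6 mice, adrenalectomized and aged 11 weeks, each read on its own single-colour Agilent whole-genome array. The groups, of 3 animals each, were females given dexamethasone, females given vehicle, males given dexamethasone and males given vehicle. Dexamethasone, a synthetic glucocorticoid, was injected intraperitoneally at 1 mg/kg, vehicle was phosphate-buffered saline, and livers were taken 6 h later. All females were in diestrous 1, and every animal, vehicle groups included, lacked its adrenal glands, the main source of its own glucocorticoid.

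An array's upper quartile lay between 578 and 1251 intensity units, with 65.1 to 71.8% of its probes clear of background. Pearson correlation over probes was 0.983 to 0.994 within groups and 0.952 to 0.985 between them. The 9 hepatocyte markers on the array averaged 7.14 to 7.76 on the log2 scale used below on the 12 arrays. Xist and Y-linked genes matched the labelled sex on 6 of 6 female and 6 of 6 male arrays. Fkbp5, a receptor co-chaperone gene and standard glucocorticoid target, rose after dexamethasone by 3.86 ± 0.42 in females and 4.45 ± 0.42 in males (log2 fold change ± standard error, limma adjusted p = 0.000556 and 0.000151). For both sexes, the vehicle arrays of a slide had lower position numbers than its dexamethasone arrays, and male arrays had lower numbers than female ones. Position was thus partly aligned with treatment and with sex. Fits with position as a linear term are given beside the results of the 9 genes but not for single genes of other lists. Each slide held 4 arrays. Slide 2 held dexamethasone females but no dexamethasone males and slide 3 the reverse, so these groups met only on slide 1.

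Levels are log2 intensities minus the array's upper quartile, so a level of 0 equals that quartile. Levels of different probes were not compared, since each probe has its own brightness. Each difference is a log2 fold change ± its standard error, estimated by limma with n = 3 arrays per group, with p-values adjusted by Benjamini and Hochberg over all 28840 probes and a threshold of 0.05. In a tissue sample, fewer cells of a type and less RNA per cell cannot be told apart.

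In the rodent liver, the pulses of growth hormone typical of males repeatedly activate the transcription factor STAT5b, and the more continuous secretion typical of females activates it less. Male-patterned genes depend on the pulses, whereas female-patterned genes are held down by them or need continuous hormone. Glucocorticoid is the other steroid signal to hepatocytes relevant here, and its receptor is known to work together with STAT5 on some liver genes. The steroid enzymes on the list are Cyp2d9, Cyp2a4 and Cyp2a5, cytochromes P450 that hydroxylate testosterone or drugs, Hsd3b5, a ketosteroid reductase of the male mouse liver, and Srd5a1, a steroid 5-alpha-reductase.

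Several of these genes have near-identical neighbours, so the sequences decide what a value can mean. Cyp2a4 and Cyp2a5 lie in a cluster on chromosome 7, and 3 of their 4 probes list transcripts of both genes. Only A_52_P246252 lists Cyp2a5 alone. It aligned over 38 bases with the Cyp2a4 probe A_51_P377154, and 3 bases differed. The design places them at chr7:23212221-23212279 and chr7:23212199-23212258 on the plus strand of mm7, that is, on the same stretch. The 30 bases of each that hold the differences, in capitals, are:
Cyp2a4: aggacacTTCgtagacttgcagaggatatt
Cyp2a5: aggacacAGAgtagacttgcagaggatatt
The other Cyp2a5 probe, A_52_P246255, shared 20 bases with A_51_P377154, so both probes partly read 1 stretch of transcript. The second Cyp2a4 probe, A_52_P9703, covers 1066 bases of the genome with 60 bases of sequence and therefore crosses an intron.

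The 2 probes of Cyp2d9, at chr15:82540764-82540823 and chr15:82540797-82540856 (mm7, plus strand), are shown because 27 bases, in capitals, are common to both. Both also list Cyp2d22, and A_51_P124133 lists Cyp2d34 as well, so they are not independent measurements of 1 gene.
A_51_P478303: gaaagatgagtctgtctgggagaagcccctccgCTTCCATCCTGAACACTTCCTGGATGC
A_51_P124133: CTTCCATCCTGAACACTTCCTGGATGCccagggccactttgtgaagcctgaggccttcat
The 2 Cyp4a12a probes, printed because they gave unlike results, do not overlap. A_51_P433360 covers chr4:114704243-114705175, 933 bases, and so crosses an intron, and A_52_P44914 lies at chr4:114709177-114709236 (mm7, plus strand). Both list the paralog Cyp4a12b. The last 30 bases of A_52_P44914 hold the letters AATAAA, in capitals, which is the form of a polyadenylation signal.
A_51_P433360: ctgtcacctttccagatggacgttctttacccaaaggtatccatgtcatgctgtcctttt
A_52_P44914: aagagtcttgccatcttccccacAATAAAg

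In females 1 probe rose, none fell and 14 did not pass, where 13.7% of all probes passed the threshold (7.28% higher, 6.39% lower). In males 1 probe rose, 4 fell and 10 did not pass, where 22.6% of all probes passed (10.9% higher, 11.7% lower). The median log2 fold change of the 15 probes was -0.19 in females and -0.27 in males, beside 0.04 in females and 0.01 in males over all probes. The effect in females minus that in males passed for none of the 15 probes by limma, where 0.00347% of all probes passed, which is 1 probe, and 1629 of all probes had an unadjusted p under 0.05.

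**Figure D1:**
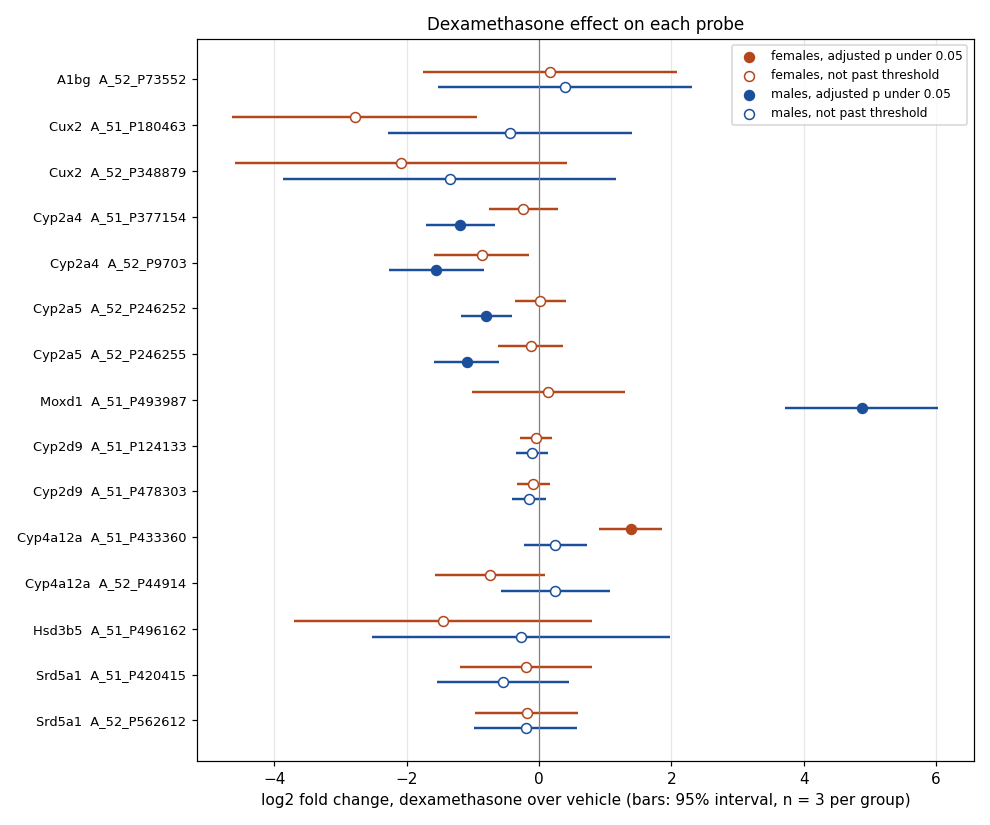
Log2 fold change of dexamethasone over vehicle (horizontal axis) for each of the 15 probes, with females above males in each pair and bars for the 95% interval (n = 3 arrays per group). Filled points passed an adjusted p of 0.05: Cyp4a12a A_51_P433360 in females, and Moxd1 and the 4 Cyp2a4 and Cyp2a5 probes in males.

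Moxd1 showed the widest response. It encodes a protein related to the copper enzyme dopamine beta-hydroxylase, and its transcript is known as male-patterned in mouse liver. In males its level was -0.14, 0.51 and -0.65 after dexamethasone, against -6.21, -4.06 and -4.63 after vehicle. In females it was -5.67, -6.46 and -6.39 after dexamethasone, against -5.70, -6.94 and -6.30 after vehicle. All 3 male dexamethasone arrays stood clear of the other 9, and the 3 other groups lay close to background, with 2 of the female vehicle arrays not well above it.

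The log2 fold change in males was 4.87 ± 0.52 (limma adjusted p = 0.00029), a 29.3-fold higher signal with a 95% interval of 3.72 to 6.03 on the log2 scale. Its size depended on the processing: other settings gave 3.21 to 5.54, and it passed in each of them. On the slides that held both male groups the difference was 6.72 on slide 1 and 3.66 on slide 3. In females the fold change was 0.14 ± 0.52 (limma adjusted p = 0.897). The female effect minus the male effect was -4.73 ± 0.74, with an adjusted p of 0.205 by limma over all probes. That difference passed by limma at an adjusted p of 0.0311 when no probe was filtered out. In that setting 3216 probes passed for it, 3046 of them outside the dim filter. It also passed at 0.0108 under a background correction added after the data were seen, so the call for it depended on the setting. The male rise passed with each of the 12 arrays left out in turn (4.25 to 5.33) and with position as a linear term (5.54).

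**Figure D2:**
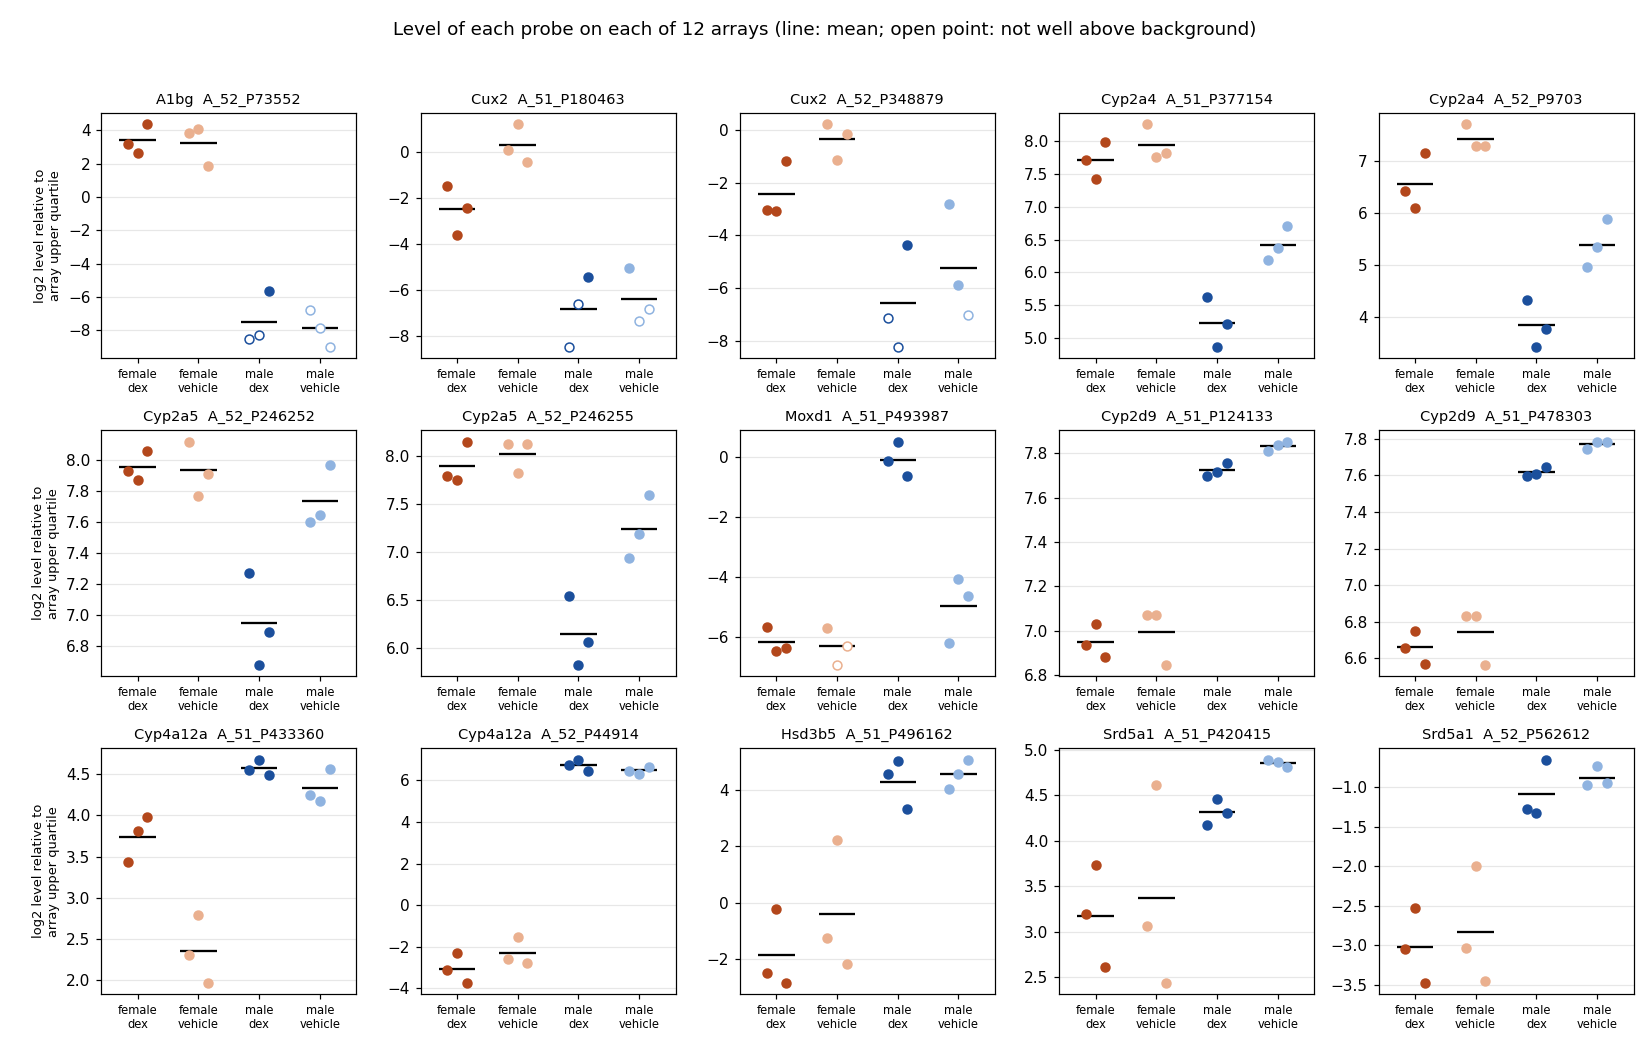
Level of each of the 15 probes on each of the 12 arrays (vertical axis, log2 level relative to the array's upper quartile), by group, with each panel on its own scale. Lines are group means and open points were not well above background; Moxd1 is high in male dexamethasone arrays, and A1bg is near its floor on all 6 male arrays.

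Both probes named for Cyp2a4, a female-patterned enzyme that hydroxylates testosterone, fell in males after dexamethasone. Since both also list Cyp2a5, the part of Cyp2a4 in these values was not resolved. At A_51_P377154 the level was 5.63, 4.86 and 5.21 in dexamethasone males, against 6.19, 6.37 and 6.70 in vehicle males, with no overlap. The fold change was -1.19 ± 0.23 on the log2 scale (limma adjusted p = 0.00534). At the intron-crossing probe A_52_P9703 it was 4.33, 3.43 and 3.77 in dexamethasone males, against 4.95, 5.34 and 5.88 in vehicle males. Here too the groups did not overlap, and the fold change was -1.55 ± 0.32 (limma adjusted p = 0.00704).

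In females the 2 probes of Cyp2a4 gave different pictures. At A_51_P377154 the levels were 7.71, 7.43 and 7.99 after dexamethasone and 8.26, 7.75 and 7.81 after vehicle, which overlap, with a fold change of -0.23 ± 0.23 (limma adjusted p = 0.568). At A_52_P9703 they were 6.41, 6.09 and 7.14 after dexamethasone and 7.71, 7.27 and 7.27 after vehicle, which do not overlap, yet the fold change of -0.87 ± 0.32 did not pass (limma adjusted p = 0.104). It passed with slide as a block (-0.99, adjusted p = 0.0395) and without female dexamethasone 3 (-1.16, adjusted p = 0.0411).

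Cyp2a5, a cytochrome P450 best known as the mouse coumarin hydroxylase, also fell in males. At A_52_P246252, the probe that lists Cyp2a5 alone, its level was 7.27, 6.68 and 6.89 in dexamethasone males, against 7.60, 7.65 and 7.97 in vehicle males. The fold change was -0.79 ± 0.17 (limma adjusted p = 0.00859) and the groups did not overlap. In females this probe read 7.93, 7.88 and 8.06 after dexamethasone and 8.12, 7.77 and 7.91 after vehicle, a fold change of 0.02 ± 0.17 with a 95% interval of -0.36 to 0.40. The shared probe A_52_P246255 fell in males by 1.09 ± 0.22 (limma adjusted p = 0.00604) and gave -0.13 ± 0.22 in females.

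For all 4 Cyp2a4 and Cyp2a5 probes the female effect lay above the male effect, by 0.68 to 0.97 on the log2 scale. None of these 4 differences passed after adjustment (limma adjusted p = 0.661 to 0.992), so a difference between the sexes in the response of this gene pair was not established. The 4 falls in males passed with each array left out in turn. With position on the slide as a linear term, a fit chosen after seeing the data, they were -0.70 to -1.40 and none of the 4 passed (limma adjusted p = 0.0721 to 0.125). Markers of other liver cells moved in the same arrays. The 8 Kupffer cell markers averaged 0.96 to 1.35 in dexamethasone males and 1.65 to 2.18 in vehicle males, with 1 of 8 lower by the test, and the 8 stellate cell markers averaged 0.53 to 0.78 in dexamethasone males and 1.18 to 1.52 in vehicle males, with 3 of 8 lower. The 8 endothelial markers averaged 0.22 to 0.44 in dexamethasone males and 0.47 to 0.87 in vehicle males, with 4 of 8 lower and 1 higher. The 9 lymphocyte markers averaged -4.14 to -3.72 in dexamethasone males and -3.18 to -2.81 in vehicle males, with 3 of 9 lower. The 9 hepatocyte markers averaged 7.55 to 7.76 in dexamethasone males and 7.16 to 7.25 in vehicle males, with 5 of 9 higher. They include Tat, also a gene of the glucocorticoid response check, in which 6 of 6 genes tested rose in males. The part of the marker shifts in the fall of the Cyp2a4 and Cyp2a5 probes was not tested.

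Cux2, a homeobox repressor of male-patterned genes in the female mouse liver, had 2 probes. At A_51_P180463 its level in females was -1.5, -3.59 and -2.42 after dexamethasone, against 0.07, 1.22 and -0.44 after vehicle. The groups did not overlap, and the fold change was -2.79 ± 0.84, with an adjusted p of 0.05004 by limma, just above the threshold. It passed without male dexamethasone 1, without male dexamethasone 3 and without male vehicle 1, arrays that enter only the shared estimate of spread (adjusted p = 0.0308, 0.0373 and 0.0422). With normexp and a capped local background, a correction added after the data were seen, both Cux2 probes fell in females, A_51_P180463 by 2.35 and A_52_P348879 by 1.75 (adjusted p = 0.00207 and 0.0226).

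The other probe, A_52_P348879, is named 1700051K22Rik in the files and was tied to Cux2 only through a synonym. It read -3.02, -3.08 and -1.18 in dexamethasone females, against 0.25, -1.13 and -0.13 in vehicle females, a fold change of -2.09 ± 1.14 (limma adjusted p = 0.262). Each of the 3 dexamethasone females lay below all 3 vehicle females at both probes, but at A_52_P348879 the nearest values were -1.18 and -1.13. Neither difference passed in the main setting, and the share of all probes without overlap was not counted. In males A_51_P180463 was well above background on 1 of 3 arrays in each group, so its fold change there, -0.44 ± 0.84, compares levels near the floor. A_52_P348879 gave -1.35 ± 1.14 in males (limma adjusted p = 0.44), with 1 of 3 dexamethasone and 2 of 3 vehicle males well above background. The female effect minus the male effect was -2.35 ± 1.18 at A_51_P180463 and -0.74 ± 1.61 at A_52_P348879. Neither passed, so a fall confined to females was not established.

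A1bg, a plasma glycoprotein gene known as female-specific in mouse liver, did not pass in either sex. In females its level was 3.18, 2.65 and 4.38 after dexamethasone and 3.82, 4.07 and 1.83 after vehicle, which overlap, with a fold change of 0.17 ± 0.87 (95% interval -1.75 to 2.09). The 6 male arrays lay between -9.00 and -5.64, and only 1 of them, male dexamethasone 3, was well above background.

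Cyp4a12a, the male-patterned cytochrome P450 that hydroxylates arachidonic acid, gave opposite signs at its probes in females. At A_51_P433360 the level was 3.44, 3.81 and 3.98 in dexamethasone females, against 2.31, 2.80 and 1.97 in vehicle females, with no overlap. The fold change was 1.39 ± 0.22 (limma adjusted p = 0.00288), 2.61-fold higher, and it passed with each array left out in turn (1.19 to 1.61) and with position as a linear term (1.41, adjusted p = 0.011). In the same females hepatocyte markers, the glucocorticoid response gene Tat among them, averaged 7.36 to 7.62 after dexamethasone and 7.14 to 7.21 after vehicle, with 3 of 9 higher. Lymphocyte markers averaged -3.47 to -3.18 after dexamethasone and -3.16 to -2.15 after vehicle, with 2 of 9 lower, and of 8 endothelial markers 2 were lower and 1 higher. The part of these shifts in the rise was not tested. At A_52_P44914 the same animals read -3.11, -2.28 and -3.73 after dexamethasone, against -2.60, -1.54 and -2.77 after vehicle.

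These values overlap, and the fold change of -0.74 ± 0.38 did not pass (limma adjusted p = 0.228). The rise in females was therefore seen at the probe that crosses an intron and not at the probe with the AATAAA letters. In males both probes gave small positive fold changes, 0.24 ± 0.22 at A_51_P433360 and 0.25 ± 0.38 at A_52_P44914, which did not pass. Since both probes list Cyp4a12b, the transcript behind either value was not resolved. Of the other Cyp4a paralogs listed, Cyp4a10 and Cyp4a31 rose in females by 1.09 ± 0.27 and 1.11 ± 0.29 (limma adjusted p = 0.0242 and 0.0282).

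Cyp2d9, a male-patterned testosterone hydroxylase, kept a narrow range in every group. At A_51_P124133 its level in males was 7.70, 7.72 and 7.76 after dexamethasone, against 7.81, 7.84 and 7.85 after vehicle, and in females 6.94, 7.03 and 6.88 after dexamethasone, against 7.07, 7.07 and 6.85 after vehicle. The male groups did not overlap, but the difference of -0.11 ± 0.11 did not pass (limma adjusted p = 0.529), and its 95% interval ran from -0.35 to 0.13. In females it was -0.05 ± 0.11. A_51_P478303 gave -0.15 ± 0.12 in males and -0.08 ± 0.12 in females, and the male value passed only with quantile normalization (-0.42, adjusted p = 0.039).

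Hsd3b5 varied more between animals than between treatments. In males its level was 4.55, 5.01 and 3.30 after dexamethasone and 4.03, 4.57 and 5.07 after vehicle, a fold change of -0.27 ± 1.02. In females it was -2.49, -0.21 and -2.83 after dexamethasone and -1.24, 2.22 and -2.15 after vehicle, a fold change of -1.45 ± 1.02. Both pairs of groups overlapped, and the adjusted p by limma was 0.886 in males and 0.392 in females. Female vehicle 2 and female dexamethasone 2, which shared slide 1, each had the highest level of their group.

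Srd5a1 was read by 2 probes, 1 of them matched to the gene by symbol alone. At A_51_P420415 its level in males was 4.18, 4.45 and 4.31 after dexamethasone, against 4.89, 4.86 and 4.81 after vehicle. The groups did not overlap, but the fold change of -0.54 ± 0.45 did not pass (limma adjusted p = 0.433). In females the levels were 3.19, 3.73 and 2.61 after dexamethasone and 3.07, 4.61 and 2.44 after vehicle, again with number 2 the highest in each group, and the fold change was -0.19 ± 0.45. The second probe, A_52_P562612, gave -0.19 ± 0.35 in females and -0.20 ± 0.35 in males.

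The sex difference that defines these genes was checked next, for each treatment. After dexamethasone, 6 of the 15 probes were higher in females, 6 were lower and 3 did not pass, where 5.08% of all probes passed (2.87% higher, 2.21% lower). After vehicle, 4 were higher in females, 6 were lower and 5 did not pass, where 1.72% of all probes passed (0.596% higher, 1.12% lower). These genes were listed as sex-patterned, so the high share is no new result. The values show at which probes a sex difference passed in adrenalectomized animals. No intact animals were measured, and a difference that did not pass is not thereby shown to be absent. With slide as a block 3 of the 12 calls after dexamethasone did not pass, and with position as a linear term 7 probes passed after dexamethasone and 2 after vehicle. With position, Cyp2d9 A_51_P124133, Cux2 A_51_P180463, Hsd3b5, Cyp2a5 A_52_P246252 and Srd5a1 A_52_P562612 lost their calls after dexamethasone (limma adjusted p = 0.0643 to 0.112). After vehicle only A1bg and Cyp4a12a A_52_P44914 kept theirs, and the calls lost had limma adjusted p = 0.165 to 0.726.

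The ranges of Kupffer, stellate, endothelial and lymphocyte marker levels also stood apart between the sexes after dexamethasone. After vehicle they overlapped. Vehicle females and males had 2.16 to 2.85 and 1.65 to 2.18 for Kupffer cell markers, and 1.26 to 1.46 and 1.18 to 1.52 for stellate cell markers. They had 0.69 to 1.28 and 0.47 to 0.87 for endothelial markers, and -3.16 to -2.15 and -3.18 to -2.81 for lymphocyte markers. After dexamethasone Kupffer cell markers averaged 1.69 to 2.71 in females and 0.96 to 1.35 in males (0 of 8 past the threshold), and stellate cell markers 1.10 to 1.36 in females and 0.53 to 0.78 in males (1 of 8 higher). Lymphocyte markers averaged -3.47 to -3.18 in females and -4.14 to -3.72 in males (2 of 9 higher), and 2 of 8 endothelial markers were higher. Of 3 adipocyte markers tested, Cfd and Cidec were lower in females than in males after both treatments, with -7.33 and -1.71 after dexamethasone and -8.58 and -2.40 after vehicle, and Plin1 did not pass (0.32 after dexamethasone and -0.17 after vehicle). Adipoq and Retn were above background on 4 arrays each and Lep on none. The part of these markers in the sex differences was not tested.

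**Figure D3:**
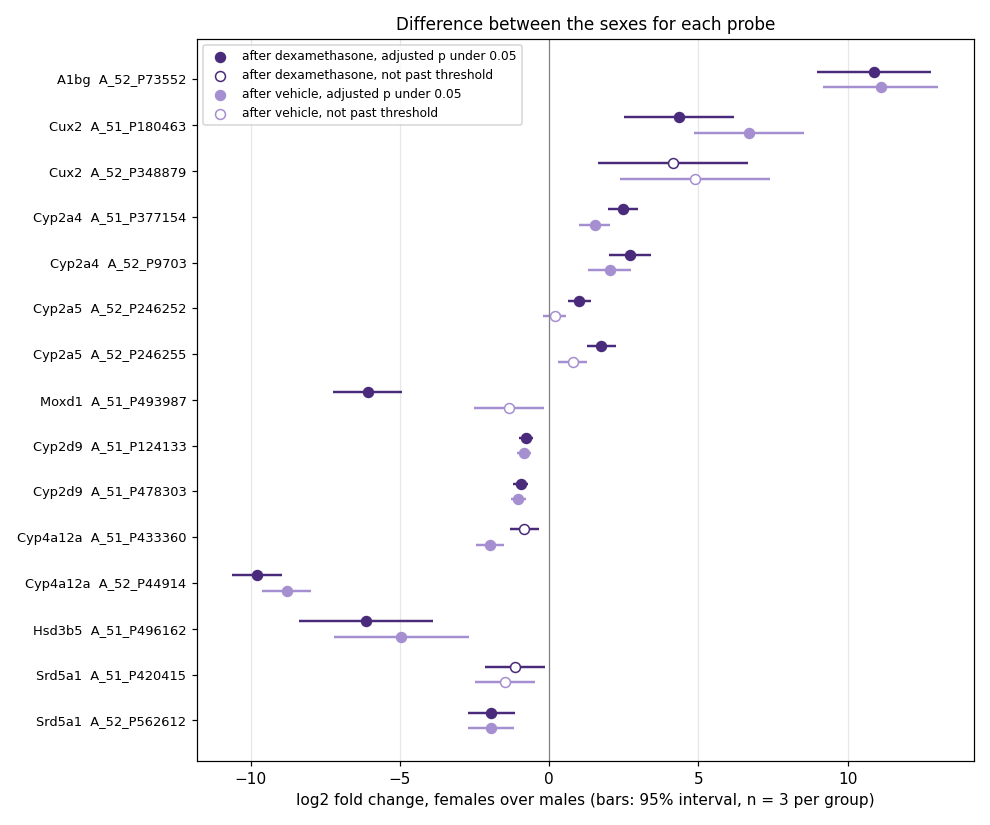
Log2 fold change of females over males (horizontal axis) for each of the 15 probes after dexamethasone and after vehicle, with bars for the 95% interval (n = 3 arrays per group). A1bg and the Cyp4a12a probe A_52_P44914 lie farthest from 0 in opposite directions, and Moxd1 is at -6.08 after dexamethasone and -1.34 after vehicle.

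A1bg was higher in females than in males after vehicle, with a log2 fold change of 11.11 ± 0.87 (limma adjusted p = 8.14e-05, 95% interval 9.19 to 13.03). No vehicle male was well above background. With males set no lower than the faintest well-above-background signal of their array, the group means differed 985-fold. Other settings gave log2 fold changes of 7.02 to 11.18, so 985-fold is no lower limit over animals or settings. After dexamethasone the log2 fold change of A1bg was 10.88 ± 0.87 with 1 of 3 males measured above background. Cux2 at A_51_P180463 was higher in females by 4.34 ± 0.84 after dexamethasone and by 6.69 ± 0.84 after vehicle (limma adjusted p = 0.0154 and 0.00197). With slide as a block the value after dexamethasone was 3.75 and did not pass (adjusted p = 0.146), nor did it pass without female dexamethasone 1 (3.84, adjusted p = 0.0663). It was 1.40 with capped normexp and 0.98 with normexp, and neither passed. The value after vehicle went down to 3.97 in other settings. At this probe 1 of 3 males in each group was well above background, so these sizes rest on male levels near the floor. At A_52_P348879 it was 4.16 ± 1.14 after dexamethasone and 4.90 ± 1.14 after vehicle, which did not pass (limma adjusted p = 0.0623 and 0.0638).

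The Cyp2a pair showed larger sex differences after dexamethasone. Both Cyp2a4 probes also list Cyp2a5. The signal at A_51_P377154 was higher in females by 2.47 ± 0.23 after dexamethasone and by 1.52 ± 0.23 after vehicle (limma adjusted p = 0.000273 and 0.00831). At A_52_P9703 the values were 2.71 ± 0.32 after dexamethasone and 2.03 ± 0.32 after vehicle (limma adjusted p = 0.00143 and 0.01), the second lost without male vehicle 2 (2.00, adjusted p = 0.0546). Cyp2a5 at A_52_P246252 was higher in females by 1.01 ± 0.17 after dexamethasone and by 0.19 ± 0.17 after vehicle, where only the first passed (limma adjusted p = 0.00928 and 0.701). With slide as a block the first did not pass (0.92, adjusted p = 0.0628). The shared probe A_52_P246255 was higher in females by 1.75 ± 0.22 after dexamethasone and by 0.78 ± 0.22 after vehicle, where again only the first passed (limma adjusted p = 0.0019 and 0.135), and it passed with each array left out in turn. The change in the sex difference is the same quantity as the female effect minus the male effect given above, and it did not pass.

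The male-patterned enzymes differed in the size of the sex difference. Cyp4a12a at A_52_P44914 had a log2 fold change of females over males of -9.78 ± 0.38 after dexamethasone and -8.79 ± 0.38 after vehicle (limma adjusted p = 1.32e-07 and 4.11e-07). At A_51_P433360 it was -0.83 ± 0.22 after dexamethasone, which did not pass, and -1.97 ± 0.22 after vehicle, which did (limma adjusted p = 0.0523 and 0.000782). The value after dexamethasone lay near the threshold: it passed without the dim filter (adjusted p = 0.0288), with capped normexp (0.0229), with probes above background on all arrays (0.0469), with 1 probe per gene (0.0496) and in 3 of 12 fits that left out 1 array. Cyp2d9 at A_51_P124133 had -0.77 ± 0.11 after dexamethasone and -0.84 ± 0.11 after vehicle. At A_51_P478303 it had -0.96 ± 0.12 after dexamethasone and -1.03 ± 0.12 after vehicle, and all 4 passed (limma adjusted p = 0.000934 to 0.00378). With position as a linear term only A_51_P478303 after dexamethasone still passed, and the other calls had limma adjusted p = 0.0643 to 0.363.

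Hsd3b5 had -6.13 ± 1.02 after dexamethasone and -4.94 ± 1.02 after vehicle (limma adjusted p = 0.00804 and 0.0374). The call after vehicle lay near the threshold: it was kept in 4 of the 12 fits that left out 1 array, with values between -6.25 and -4.07, and was lost without female dexamethasone 1, male dexamethasone 1 or male dexamethasone 2 at an unchanged value (adjusted p = 0.0523 to 0.0583). On slide 1, which held female vehicle 2, females differed from males by -1.81 after vehicle, against -6.31 on slide 2 and -6.72 on slide 3. Moxd1 had -6.08 ± 0.52 after dexamethasone and -1.34 ± 0.52 after vehicle, where only the first passed (limma adjusted p = 0.000139 and 0.301).

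Srd5a1, listed with the female-patterned genes, was lower in females at both probes. At A_52_P562612 the log2 fold change of females over males was -1.93 ± 0.35 after dexamethasone and -1.95 ± 0.35 after vehicle (limma adjusted p = 0.0126 and 0.0208). The value after dexamethasone did not pass with slide as a block (-1.80, adjusted p = 0.0963). The value after vehicle did not pass without female vehicle 1 or 3 or male vehicle 2 or 3 (adjusted p = 0.0680 to 0.104). At A_51_P420415 it was -1.14 ± 0.45 after dexamethasone and -1.48 ± 0.45 after vehicle, which did not pass (limma adjusted p = 0.182 and 0.165), but without female vehicle 2 the vehicle value was -2.10 and passed (adjusted p = 0.00709). The values at both probes thus lay against the direction listed for this gene, but in the main setting only the probe matched by symbol alone passed.

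The start-site sequences of Cyp2a4 and Cyp2a5, whose probes fell together in males, were compared. RefSeq sequences of build GRCm38.p6 were found for 8 of the 9 genes, all but Cyp4a12a, and the 250 bases before each start were read. For Cyp2a4 these are chr7:26306942-26307191 and for Cyp2a5 chr7:26835089-26835338, both on the plus strand. Of 249 aligned bases 245 were identical (98.4%), and the 4 that differ are in capitals.
Cyp2a4: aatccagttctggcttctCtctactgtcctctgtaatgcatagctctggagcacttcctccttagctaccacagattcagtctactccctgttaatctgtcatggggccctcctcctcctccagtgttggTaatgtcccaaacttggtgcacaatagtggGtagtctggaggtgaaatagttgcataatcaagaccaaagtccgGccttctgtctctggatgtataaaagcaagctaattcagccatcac
Cyp2a5: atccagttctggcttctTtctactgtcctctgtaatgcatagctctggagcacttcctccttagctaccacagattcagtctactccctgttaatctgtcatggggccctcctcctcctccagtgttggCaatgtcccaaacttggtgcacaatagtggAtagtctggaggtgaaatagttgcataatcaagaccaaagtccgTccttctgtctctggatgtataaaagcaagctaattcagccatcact

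The letters TTCNNNGAA, the form of a STAT5 site and its own reverse complement, were found in the windows of A1bg and Moxd1, 84 and 150 bases before the start. They are shown in capitals in the windows chr15:60921271-60921520 (minus strand) and chr10:24223267-24223516 (plus strand), since these 2 genes had the widest female excess and the widest response to dexamethasone among the 9.
A1bg: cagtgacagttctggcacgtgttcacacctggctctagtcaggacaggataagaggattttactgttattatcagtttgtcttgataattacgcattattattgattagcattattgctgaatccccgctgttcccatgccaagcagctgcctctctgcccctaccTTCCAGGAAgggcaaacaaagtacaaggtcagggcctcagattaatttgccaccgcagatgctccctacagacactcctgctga
Moxd1: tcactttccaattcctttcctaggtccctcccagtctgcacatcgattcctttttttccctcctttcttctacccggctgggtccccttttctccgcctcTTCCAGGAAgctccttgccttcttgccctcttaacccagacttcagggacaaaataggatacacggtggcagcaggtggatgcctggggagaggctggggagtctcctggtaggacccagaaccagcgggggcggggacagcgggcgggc
Of 32851 windows of the same length, 7.02% held these letters. The letters AGAACA on either strand, found in part of a glucocorticoid receptor site, were in 16.1% of windows and in none of the 8 genes' windows. The letters ATCGAT, a form bound by CUX2 and HNF6, were in 0.728% of windows, among them 1 of 2 windows of Cux2 and that of Moxd1. A match describes the letters of a window only.

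For each gene, the brightest of its probes was compared with the brightest probe of 15329 genes with a usable symbol over the 12 arrays, which span both sexes and both treatments, so these correlations mix both. Hsd3b5 was most like its paralog Hsd3b4 (Pearson r = 0.998, n = 12 arrays) and Mup5 (0.962). Cyp2d9 was most like Aox1 (0.985) and the Y-linked Kdm5d (0.984), and A1bg was most like Xist (0.981) and Sult2a2 (0.972). Cyp4a12a went with Scara5 (0.972) and Cyp2j9 (0.948), Moxd1 with Atpsckmt (0.961) and Selenbp1 (0.957), and Srd5a1 with Retsat (0.933) and Hsd3b4 (0.926). Cyp2a4 went with Cd1d2 (0.967) and Ilvbl (0.951), Cyp2a5 with Ecm2 (0.957) and Bambi (0.939), and the Cux2 probe A_52_P348879 with Spin2c (0.956) and Nat8l (0.937).

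Paralogs of the members were counted with 1 probe per gene. Calls here and on the lists below are those of the main setting. Whether single genes keep them with position as a linear term is not given. With that term 1604 of all probes passed in males, against 6521 in the main setting, so male calls near the threshold are the less firm. Of 21 tested, 2 rose and 1 fell in females after dexamethasone, where 6.78% of all genes rose and 6.88% fell, and none rose and 6 fell in males, where 10.4% rose and 12.1% fell. Their median log2 fold change was -0.11 in females and -0.27 in males, beside 0.02 and 0.01 over all genes. Srd5a2, the other 5-alpha-reductase gene, had log2 fold changes of -1.81 ± 0.21 in females and -1.29 ± 0.21 in males, both falls (limma adjusted p = 0.000786 and 0.00227). In males Cyp2d13 fell by 1.16 ± 0.26 and the steroid dehydrogenase genes Hsd3b6, Hsd3b3, Hsd3b2 and Hsd3b7 fell, with log2 fold changes of -1.16, -1.08, -1.07 and -0.55 (limma adjusted p = 0.00906 to 0.0418). Hsd3b4 was lower in females than in males, with -5.64 ± 0.93 after dexamethasone and -4.81 ± 0.93 after vehicle (limma adjusted p = 0.00759 and 0.0278).

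Of 18 genes of growth hormone signalling, 2 rose and 1 fell in females and 4 rose and 3 fell in males after dexamethasone. Over all genes 6.78% rose and 6.88% fell in females, and 10.4% rose and 12.1% fell in males. Igfbp3, a carrier of insulin-like growth factors, rose by 1.17 ± 0.17 in females and 1.48 ± 0.17 in males. Hnf4a, a hepatocyte transcription factor, rose by 1.02 ± 0.14 in females and 0.87 ± 0.14 in males, and Jak2, the kinase bound to the growth hormone receptor, fell, with -0.54 ± 0.14 in females and -0.88 ± 0.14 in males. In males Socs2, a feedback inhibitor of the receptor, rose by 2.62 ± 0.58 (limma adjusted p = 0.00892), and Onecut1, which encodes HNF6, rose by 1.21 ± 0.36 (adjusted p = 0.0347). Stat5b fell in males by 0.55 ± 0.18 (limma adjusted p = 0.048) and had -0.07 ± 0.18 in females. No gene of this list passed for the female effect minus the male effect. Prlr, the prolactin receptor gene, was higher in females than in males by 2.29 ± 0.37 after dexamethasone and 2.18 ± 0.37 after vehicle (limma adjusted p = 0.00726 and 0.0148).

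Other genes known as sex-patterned in mouse liver were set beside the 9 members. They too were listed as sex-patterned, with earlier results of these data known, so their high shares of sex calls are no new result. With 1 probe per gene, of 30 other female-patterned genes tested, 18 were higher in females after dexamethasone and 15 after vehicle, where 3.08% and 0.631% of all genes were, and none was lower. Of 22 other male-patterned genes tested, 17 were lower in females after dexamethasone and 12 after vehicle, where 2.36% and 1.25% of all genes were, and none was higher. The medians of females over males were 1.59 after dexamethasone and 2.25 after vehicle for the female-patterned genes and -1.5 after dexamethasone and -1.39 after vehicle for the male-patterned genes, beside -0.05 over all genes for both treatments.

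**Figure D4:**
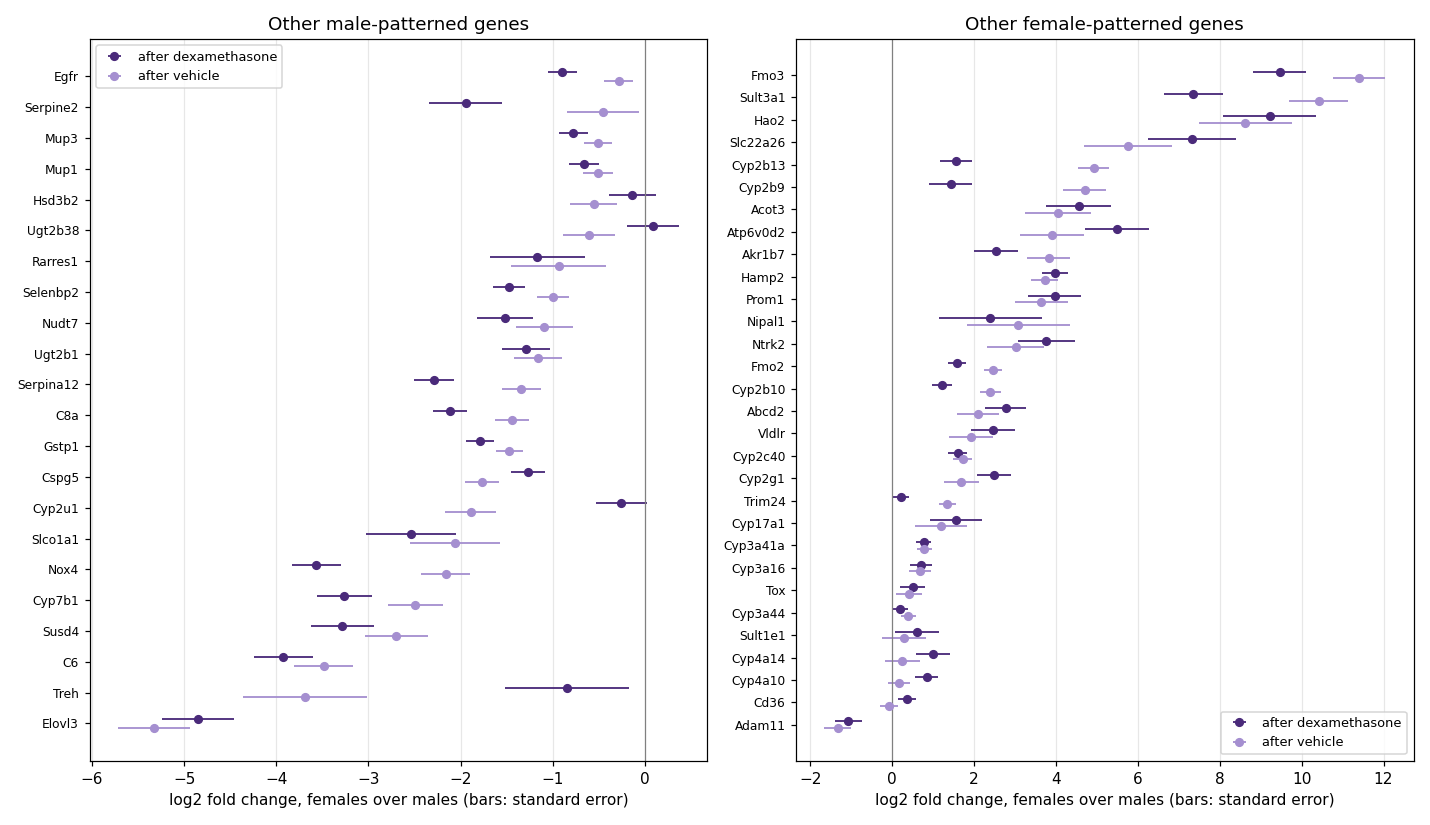
Log2 fold change of females over males (horizontal axis, bars for the standard error, n = 3 arrays per group) for 22 other male-patterned and 30 other female-patterned genes after dexamethasone and after vehicle. Cyp2b13 and Cyp2b9 lie nearer 0 after dexamethasone (1.56 and 1.43) than after vehicle (4.92 and 4.70), and Treh likewise (-0.85 and -3.69).

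Some of these genes passed for dexamethasone. Of the 30 female-patterned genes, 5 rose and 4 fell in females, and 9 rose and 4 fell in males, where 6.78% and 6.88% of all genes rose and fell in females and 10.4% and 12.1% in males. Sult1e1, the estrogen sulfotransferase gene, rose by 8.27 ± 0.54 in females and 7.96 ± 0.54 in males, and Cyp2b10, a drug-induced cytochrome P450, rose by 3.49 ± 0.25 in females and 4.67 ± 0.25 in males. In males Cyp2b13 rose by 4.20 ± 0.39 and Sult3a1 by 4.47 ± 0.72 (limma adjusted p = 0.000134 and 0.00186), and Acot3, an acyl-CoA thioesterase gene, fell in both sexes, with -4.73 ± 0.80 in females and -5.24 ± 0.80 in males. Of the 22 male-patterned genes, 4 rose and 2 fell in females, and 7 rose and 2 fell in males, beside the same shares over all genes. Treh, which encodes trehalase, rose by 5.97 ± 0.67 in females and 3.13 ± 0.67 in males (limma adjusted p = 0.000615 and 0.0079), and Serpine2, a protease inhibitor gene, rose by 2.06 ± 0.39 in females and 3.55 ± 0.39 in males. No gene of either list passed for the female effect minus the male effect.

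Of 16 other steroid enzymes of the liver, 2 rose and none fell in females after dexamethasone, and 3 rose and 1 fell in males, beside the same shares over all genes. Cyp39a1, an oxysterol hydroxylase gene, rose by 1.76 ± 0.34 in females and 1.51 ± 0.34 in males (limma adjusted p = 0.00781 and 0.01). Hsd17b2, which encodes a dehydrogenase that inactivates sex steroids, rose by 1.04 ± 0.19 in males (limma adjusted p = 0.00316), and Akr1c12 fell by 0.62 ± 0.19 (adjusted p = 0.0429). Cyp7b1, an oxysterol hydroxylase gene known as male-patterned, was lower in females than in males, with -3.26 ± 0.30 after dexamethasone and -2.49 ± 0.30 after vehicle (limma adjusted p = 0.00023 and 0.00161).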

How the data were processed

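Liver RNA of 12 mice was measured on single-colour Agilent arrays. Per the file headers, the deposited values were intensities from Feature Extraction (version 9.5, per the submitters' processing notes). The processed signal was used, which the authors' software had corrected for background, and the deposited series values equalled it, within a relative tolerance of 1e-06, for all 45018 spots. Log2 signals minus each array's 75th percentile were fitted with limma 3.58.1 in R 4.3.3 (data.table version 1.17.8), with 4 group means on all 12 arrays and 8 residual degrees of freedom. Control spots and 57 probes with outlier flags were left out, and 28840 probes were kept. List genes were read at the brightest of their probes (19339 genes). Sequences were aligned with Biopython 1.88, and figures drawn with matplotlib 3.10.9. Probe coordinates are those of the design (mm7), whose exon annotation was not used. The arrays are labelled as biological replicates, and their number limits the precision.

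The 9 genes and all lists were chosen with earlier results of these data known. Named were every member probe, the 2 genes most like each member, and from each list at most 4 genes per comparison with the largest changes past the threshold, plus paralogs a probe could read and genes checking sex and the glucocorticoid response. Stat5b, Hnf4a in males, Hsd3b2, Hsd3b7, Cyp2b13 and Cyp2b9 fell outside this rule and were chosen after their values were seen. Alternatives were normexp, quantile normalization, other dim-probe filters, slide or replicate as a block, position on the slide, 1 probe per gene, the series values and leaving out each array. Replicate numbers did not pair the samples.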

Additional observations from a re-analysis of the deposited data

How the results depend on the processing

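The direction of every call on the 15 probes was kept under all alternatives run. The count of member probes past the threshold moved by over 1.5 times as follows. With position on the slide as a linear term, also added after seeing the data, it was 1 in males, 7 for sex after dexamethasone and 2 for sex after vehicle, while all probes called were 2271 in females, 1604 in males, 370 for sex after dexamethasone and 45 for sex after vehicle. In females after dexamethasone it was 2 with slide as a block and 3 with normexp and capped local background, a setting chosen after seeing the data. With 1 probe per gene, where 9 member probes are tested instead of 15, it was 3 in males, and in the sex comparisons 7 after dexamethasone and 5 after vehicle. No call on these 9 probes was lost in that setting, and 1 was gained. For the female minus the male effect it was 1 without the dim filter and 1 with capped normexp. With normexp it was 5 and 6 in the sex comparisons after dexamethasone and after vehicle. Leaving out 1 array gave 1 to 2 in females, 5 in every case in males, 0 in every case for the female minus the male effect, 11 to 14 for sex after dexamethasone and 7 to 11 for sex after vehicle. Counts of calls on the gene lists also depended on the setting. With position as a linear term 15 of these list counts moved and 10 did not. With normexp 14 moved and 11 did not.

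Over all probes, normexp called 692 in females, 1139 in males, 0 for the female minus the male effect, 70 for sex after dexamethasone and 100 for sex after vehicle, and shifted the median of all probes to 0.34 and 0.35 in females and males. Its fitted background mean was extreme on female dexamethasone 3 and male dexamethasone 1, at -515 and -399. With capped normexp it was -4.79 and -3.80 on these arrays. Cyp2d9, Srd5a1 and Hsd3b5 lost their sex calls under it, and Moxd1, Cux2 A_51_P180463 and Cyp2a5 A_52_P246252 lost theirs after dexamethasone. With capped normexp only 1 of these calls was lost, that of Cux2 A_51_P180463 after dexamethasone. The cause of the losses was not tested. Without the dim filter 3216 probes passed for the female minus the male effect, 3046 of them outside that filter, and 6023 for sex after dexamethasone, 3787 of them outside it. Of these 6023 calls 22.3% were higher in females. The female minus the male effect had 0 calls with probes above background on all arrays, 0 with slide as a block and 3 with capped normexp. Sex after dexamethasone had 318 with slide as a block, of which 36.2% were higher in females, against 56.6% in the main setting, and capped normexp gave 36.1%. In males capped normexp put 59.3% of calls higher, against 48.4%. After vehicle 51.0% were higher with normexp, against 34.7%.

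Leaving out 1 array gave 2265 to 3851 probes in females, 3590 to 7486 in males, 1 to 31 for the female minus the male effect, 615 to 1683 for sex after dexamethasone and 194 to 574 for sex after vehicle. Same-numbered samples correlated at -0.20 to 0.28, so the numbers did not pair them. With the replicate block no call on the 15 probes changed, and 949 and 320 probes passed for sex after dexamethasone and after vehicle. Levels of A1bg and Cux2 in males and of Moxd1 in vehicle females are near background, which limits their fold changes.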
